A study of Homo sapiens with 7 samples.

Results

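The constitutive proteasome genes were read out in MOLM13 cells, a line from a human acute myeloid leukemia, after transduction with guide RNAs against ZFP36L2. Members were the genes whose symbol is PSM followed by a letter from A to G and a number, without the immunoproteasome subunits PSMB8, PSMB9 and PSMB10, which gave 41 of the 11408 genes with values. PSMB3, PSMC1, PSMA8 and PSMB11, which belong to the same families, were not analysed here. Of the 7 libraries, 4 were labelled ZFP36L2 KO and 3 carried sgRosa, a non-targeting guide. The KO libraries came from 2 guides with 2 libraries each, named guide 3 and guide 5 after the deposited columns. All were poly(A) RNA taken 6 days after transduction of the same line. The labels name no clone and no sorting of edited cells, so cells carrying other edits or none may be part of each KO library. Nor do they tell if the replicates were grown apart. P-values of the main fit measure the spread between libraries of the same guide or of sgRosa, which may be technical. They do not measure the spread between the guides.

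The 26S proteasome degrades proteins tagged with ubiquitin chains. Its 20S core is a barrel of alpha rings, which form the gate, and beta rings, which hold the active sites. The 19S cap, made of a base with an ATPase ring and a lid, recognises, deubiquitinates and unfolds substrates, and dedicated chaperones build both. The transcription factor NFE2L1 acts with small MAF proteins on antioxidant response elements to raise proteasome genes together when proteasome activity is short. ZFP36L2 belongs to a family of RNA-binding proteins that bind UAUUUAU in 3′ UTRs and promote mRNA decay.

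Both kinds of sequence were searched in the members, because they are where these 2 regulators are known to bind. TATTTAT, the DNA letters of UAUUUAU, was searched on the transcript strand of the 3′ UTR of the transcript with the longest coding sequence in GENCODE 29. It occurred in 5 of 41 members (12.2%), against 30.6% of 10640 listed genes with an annotated coding sequence, including any without a 3′ UTR. Proteasome 3′ UTRs were also short, with a median of 320 bases against 984 bases. The shorter ATTTA, which is contained in TATTTAT, was found in 51.2% of members and 66.9% of listed genes. The sites follow, with the motif in capitals and overlapping copies written as 1 run.
PSMG1, 3′ UTR base 265 on: tatctTATTTATTTATTTATTTATttttt
PSMG1, 3′ UTR base 150 on: ttaattcctTATTTATggtggtatt
PSMB2, 3′ UTR base 924 on: ttagattTATTTATTTATttagaga
PSMD12, 3′ UTR base 1305 on: tatctgtcaTATTTATcctgtgagt
PSMB5, 3′ UTR base 80 on: cctccatccTATTTATagtggaagg
PSME3, 3′ UTR base 1034 on: atttctcttTATTTATagtgtcggg
The stated base is the first of the motif. PSMG1 held 5 copies, 4 of them in 1 overlapping run, the most among members.

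The antioxidant response element core TGACNNNGC was searched on both strands of the RefSeq promoters (GRCh38.p14, 250 bases before to 50 after the start), which were given for 35 of 41 members. It occurred in 11 of these 35 (31.4%), against 13.6% of 27305 RefSeq promoters and 15.6% of the 8371 that belong to listed genes. The matches of all 4 members with the core whose mRNA fell are shown, and 2 for members whose mRNA did not pass the test. Those of PSMD3, PSMD9, PSME2, PSME4 and PSMG2, none of which fell, are left out, so the sites shown are not a fair sample. The core is in capitals and each sequence is on the strand of its gene.
PSMG1, chr21:39183615-39183644, minus strand: gcccagggcaTGACAGCGCgggcgggcggt
PSMD12, chr17:67366723-67366752, minus strand: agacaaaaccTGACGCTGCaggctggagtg
PSMD1, chr2:231056887-231056916, plus strand: ggcggcctgaggaggcgacTGACTGAGCag
PSMD5, chr9:120843037-120843066, minus strand: tggctacagtTGACACGGCcctaacggagg
PSMC4, chr19:39971182-39971211, plus strand: acagaggccgGCTTGGTCActatggaggag
PSME1, chr14:24136098-24136127, plus strand: atggcagggcTGACCCCGCctcctccatcc
In PSMC4 the core lies on the opposite strand. A match is a run of letters and not a measured binding site.

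Reads assigned to listed genes came to 28087405 to 38806678 in the KO libraries and 16907955 to 25164359 in the sgRosa libraries. ZFP36L2 mRNA was higher in every library labelled KO, at 269, 322, 174 and 164 FPKM, against 80.2, 79.3 and 73.9 FPKM in sgRosa libraries (log2 change 1.51 ± 0.16 SE, limma adjusted p = 8.2e-05). Editing need not lower an mRNA, so this level shows neither presence nor loss of the protein, and each direction is that of the libraries labelled KO. All 8 markers of myeloid leukemia cells had values, with a summed level of 1369 to 1661 CPM (counts scaled to each library's total) in KO and 1202 to 1383 in sgRosa libraries. The sum hides opposite changes, since 2 of the 8 rose and 2 fell, against 22.5% risen and 19.7% fallen of all tested genes. Of 20 markers of T, B, erythroid, epithelial and fibroblast cells only CD3D, KRT18 and PDGFRB had values, and CD3D, which fell, had 5.62 to 8.15 CPM in KO and 14.7 to 15.7 in sgRosa libraries. PDGFRB was higher in every KO library, at 1.03 to 1.96 CPM against 0.221 to 0.596 in sgRosa libraries. KRT18 overlapped, at 1.04 to 2.05 CPM in KO and 0.914 to 3.93 in sgRosa libraries. Control replicate 2 stood apart, where mitochondrial pseudogenes took 0.160% of reads (0.0463% to 0.0828% elsewhere), and was the highest sgRosa library for 24 (58.5%) and the lowest for 11 (26.8%) of the 41 members, against 64.0% and 18.5% of all genes. Where the call of a named gene in KO over sgRosa changes without it, the value without it is given beside the call.

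Levels between genes were compared in sgRosa libraries as reads per kilobase of exon scaled to the same sum over all listed genes in each library (TPM), since the deposited FPKM divide by the whole gene with its introns. The 41 members summed to 7600, 7018 and 7575 TPM. PSMB1, a structural beta subunit, was highest at 487 ± 89.0 TPM (SD, n = 3), followed by the activator PSME1 (404 ± 68.4), the ATPase PSMC3 (389 ± 19.03) and the beta subunit PSMB4 (379 ± 79.4). Neighbours in this order overlapped between libraries for 36 of 40 pairs, and the 4 without overlap were PSMD14 and PSMD6, PSMC6 and PSMG4, PSMG4 and PSMD9, and PSMD9 and PSMA6. Of the active-site subunits, PSMB7 had 294 ± 33.2, PSMB6 253 ± 71.0 and PSMB5 186 ± 59.9 TPM.

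At the low end stood PSMA6 with 1.28 ± 0.29, PSMD9 with 5.58 ± 1.04 and PSMG4 with 9.65 ± 2.56 TPM (SD, n = 3 each). PSMA6 encodes an obligate alpha subunit, and its 27 to 92 reads per library are not read here as a low mRNA level. It shares 919 exonic bases on the same strand with the annotated gene AL121594.1 and has 4 annotated pseudogenes, and the part of either in this value was not tested. The same kind of overlap covers PSMA1 (814 bases), PSMA2 (781 bases) and PSMD9 (1307 bases with AC069503.2), whose levels are uncertain for it. PSMA2 and PSMD10 have 3 annotated pseudogenes each and PSME2 has 2. Division by the length of 1 transcript instead of all exons gave 89.7 TPM for PSMG4, against 5.31 for PSMA6 and 9.87 for PSMD9, so the value of PSMG4 depends on the length used. For 13 of the 41 members the level moved by over 1.5 times with that choice, among them PSMA3 (412 TPM per transcript against 228 per exon union), PSMD6 (187 against 54.6) and PSME2 (289 against 126). By transcript length PSMB1 stayed highest, PSMB4 was second, PSME1 had rank 5 and PSMC3 rank 7.

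**Figure D1:**
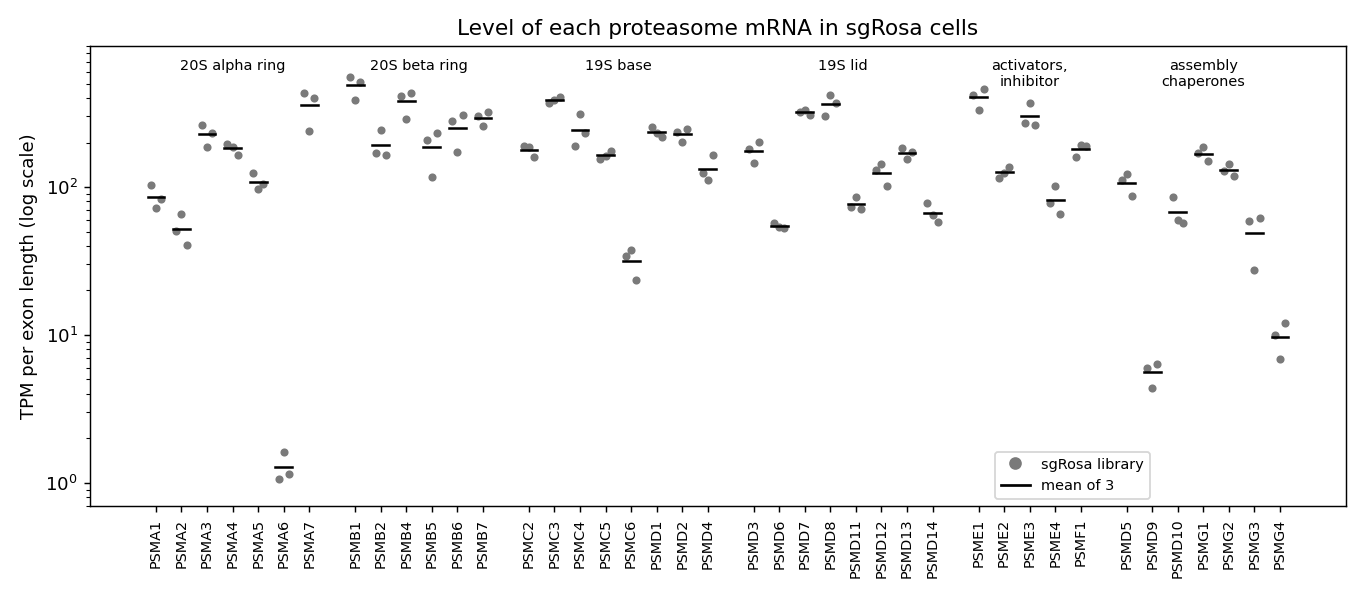
Level of each of the 41 members in the 3 sgRosa libraries, as TPM per exon length on a log axis, grouped by subcomplex (grey points, libraries; black bars, their mean). PSMB1 is highest at 487 TPM, and PSMA6, PSMD9 and PSMG4 lie apart from the rest at 1.28, 5.58 and 9.65 TPM.

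No proteasome member rose in the KO libraries, and 12 of the 37 tested members fell. The falls were in assembly chaperones (PSMG1, PSMD10, PSMD5), alpha subunits (PSMA2, PSMA4, PSMA5), base subunits (PSMC6, PSMC2, PSMD1) and lid subunits (PSMD12, PSMD6, PSMD14), while no beta subunit, activator or inhibitor passed the test. The test was limma on log2(FPKM + 0.5), with p adjusted by Benjamini-Hochberg over the 6783 genes with at least 1 FPKM in at least 2 libraries and a threshold of 0.05. Of the tested members 32.4% fell and 0 rose, against 19.7% and 22.5% of all tested genes. The median log2 change was -0.24 over the members and -0.005 over all tested genes. At an unadjusted p under 0.05 likewise 0 members rose, and limma-voom on recovered reads gave 0 risen and 15 fallen of 41, against 22.0% and 26.4% of all genes.

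PSMA1, PSMA6, PSMD9 and PSMG4 stayed below 1 FPKM in every library and were not tested. Since FPKM divide by the whole gene, this need not mean few reads. PSMA1 spans 149852 bases and had 1324 to 1901 reads per library, with every KO library below every sgRosa library. By limma-voom on recovered reads its log2 change was -0.35 (adjusted p = 0.090). PSMD14 entered the test through 2 sgRosa libraries alone, so it had to be lower in KO libraries to be counted. Without the filter 10 of all 41 members fell and 0 rose (24.4% fallen), against 16.9% fallen and 19.2% risen among all 11408 genes, and PSMD14 was among the 10 (adjusted p = 0.044). Every KO library lay below every sgRosa library for 14 of 41 members and above for 0, against 23.7% and 19.8% of all genes. The call of a member was sensitive to single libraries: the number fallen was 3 without guide 3 replicate 1, 2 without guide 3 replicate 2, 1 without guide 5 replicate 1, 2 without guide 5 replicate 2 and 3 without control replicate 1, against 12.1%, 8.31%, 8.36%, 13.6% and 13.4% fallen of all tested genes in the same fits. Without control replicate 2, 11 fell and PSMC4 and PSMD8 rose, against 19.5% fallen and 27.1% risen. Fewer cells of a type and less RNA per cell cannot be told apart in these bulk libraries.

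**Figure D2:**
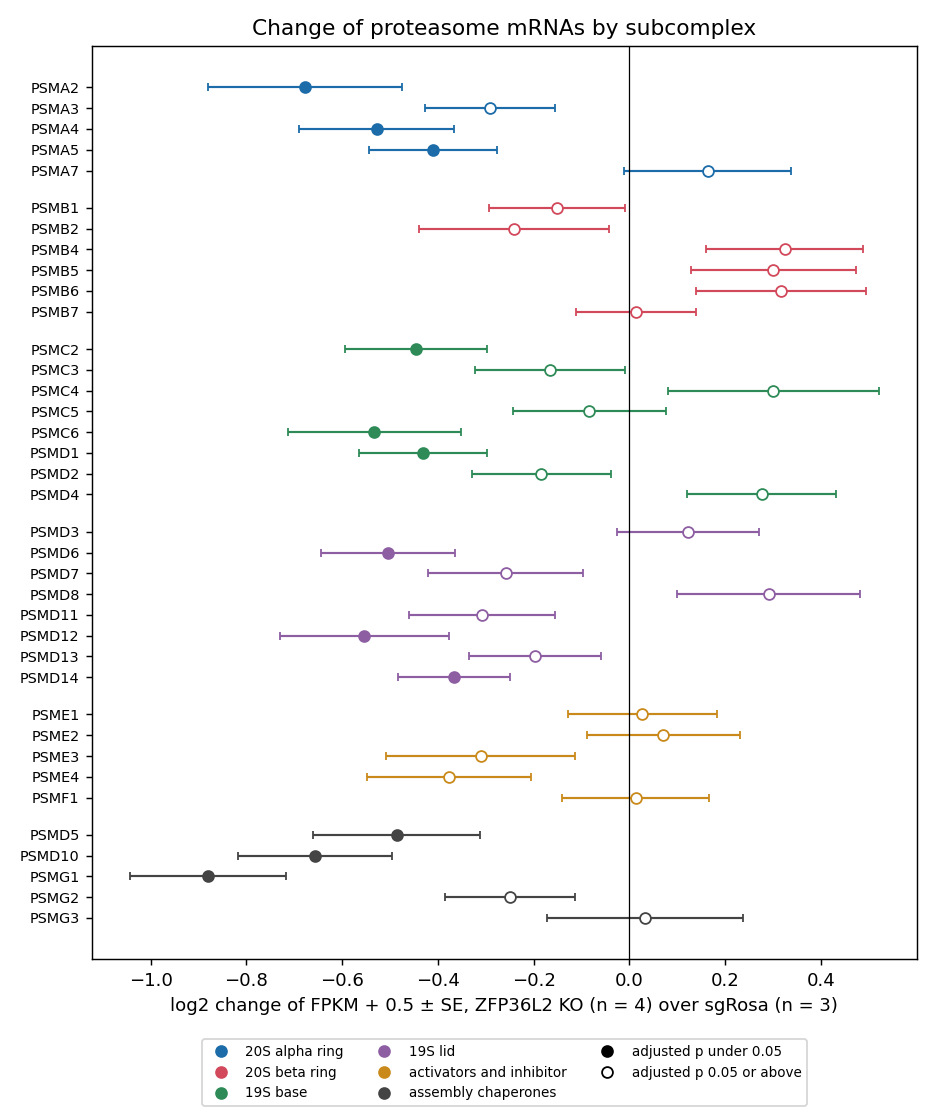
Log2 change of FPKM + 0.5 in ZFP36L2 KO (n = 4) over sgRosa (n = 3) for the 37 tested members, by subcomplex; points are estimates, bars their SE, and filled points have adjusted p under 0.05. The 12 filled points all lie left of 0, from -0.88 for PSMG1 to -0.37 for PSMD14, and none belongs to the beta ring or the activators.

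The assembly chaperones held the largest fall. PSMG1 pairs with PSMG2 in the chaperone that starts the alpha ring. PSMG1 (ENSG00000183527, chromosome 21, 39174769 to 39183851 in GRCh38) had 4.83 and 4.85 FPKM with guide 3 and 6.22 and 6.37 FPKM with guide 5, against 9.84, 13.3 and 9.03 FPKM in sgRosa libraries. All 4 KO libraries lay well below all 3 sgRosa libraries. The log2 change was -0.88 ± 0.16 (SE; 95% interval -1.24 to -0.52, adjusted p = 0.0027). It was the one member that fell with each guide on its own, by 1.05 on the log2 scale with guide 3 (adjusted p = 0.0030) and by 0.71 with guide 5 (adjusted p = 0.031), and it passed under each of the 21 alternatives, whose log2 changes ran from -1.06 to -0.71.

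PSMD10, or gankyrin, escorts an ATPase of the base during assembly. Its values were 2.80 and 2.88 FPKM with guide 3 and 2.82 and 3.56 FPKM with guide 5, against 5.98, 5.12 and 4.13 FPKM in sgRosa libraries. The groups did not overlap, and guide 5 replicate 2 lay nearest to the sgRosa libraries. The log2 change was -0.66 ± 0.16 (SE, adjusted p = 0.0098), and the call was lost in 1 of 7 fits that left out a library, without guide 5 replicate 1, at an adjusted p of 0.054. PSMD5, another base chaperone, fell by 0.49 (adjusted p = 0.046), and had -0.31 with an adjusted p of 0.068 without control replicate 2. PSMG2, the partner of PSMG1, had a log2 change of -0.25 ± 0.14 (adjusted p = 0.16), and -0.13 without control replicate 2. PSMG3 had 0.03 ± 0.20 (adjusted p = 0.90), and -0.23 without that library.

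In the alpha ring, 3 of 5 tested members fell, against 19.7% of all tested genes, with a median log2 change of -0.41. PSMA2 had 3.11 and 2.31 FPKM with guide 3 and 2.07 and 2.06 FPKM with guide 5, against 3.69, 5.88 and 3.08 FPKM in sgRosa libraries. Control replicate 2 was far above the other sgRosa libraries, and guide 3 replicate 1 lay above control replicate 3, so the groups overlapped. The log2 change came to -0.68 ± 0.20 (SE, adjusted p = 0.023), and -0.44 without control replicate 2 (adjusted p = 0.026).

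PSMA4 had 22.6 and 21.3 FPKM with guide 3 and 21.7 and 24.9 FPKM with guide 5, against 32.2, 38.2 and 28.6 FPKM in sgRosa libraries. Its KO libraries stayed within a narrow range, below every sgRosa library. The log2 change was -0.53 ± 0.16 (SE, adjusted p = 0.026). PSMA5 fell by 0.41 (adjusted p = 0.032). PSMA3 had -0.29 (adjusted p = 0.10) with no overlap between the groups, and -0.33 with an adjusted p of 0.038 without control replicate 2. PSMA7 had 0.16 (adjusted p = 0.46), and -0.0020 without that library.

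None of the 6 tested beta subunits passed the test, against 19.7% fallen and 22.5% risen of all tested genes. Their median log2 change was 0.16. PSMB5 carries the chymotrypsin-like site, the main target of clinical proteasome inhibitors. Its levels were 5.30 and 5.73 FPKM with guide 3 and 4.26 and 4.30 FPKM with guide 5, against 4.13, 2.88 and 4.78 FPKM in sgRosa libraries. The guide 3 libraries were the highest and control replicate 2 the lowest. This gave a log2 change of 0.30 ± 0.17 (SE; 95% interval -0.08 to 0.68, adjusted p = 0.18), and 0.12 without control replicate 2.

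PSMB6, with the caspase-like site, had 50.0 and 49.5 FPKM with guide 3 and 39.2 and 35.2 FPKM with guide 5, against 36.1, 27.4 and 41.2 FPKM in sgRosa libraries. The guide 5 libraries lay inside the sgRosa range, and the log2 change was 0.32 ± 0.18 (SE; 95% interval -0.08 to 0.71, adjusted p = 0.17), or 0.15 without control replicate 2. PSMB7, with the trypsin-like site, had 2.18 and 2.17 FPKM with guide 3 and 1.90 and 1.602 FPKM with guide 5, against 1.84, 1.92 and 2.03 FPKM in sgRosa libraries. The guide 3 libraries were the highest and guide 5 replicate 2 the lowest, and the log2 change was 0.01 ± 0.13 (SE; 95% interval -0.27 to 0.29, adjusted p = 0.93). The structural subunits PSMB4 (0.32), PSMB1 (-0.15) and PSMB2 (-0.24) had adjusted p of 0.13, 0.40 and 0.34. PSMB2 had 0.0082 without control replicate 2, its highest library.

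**Figure D3:**
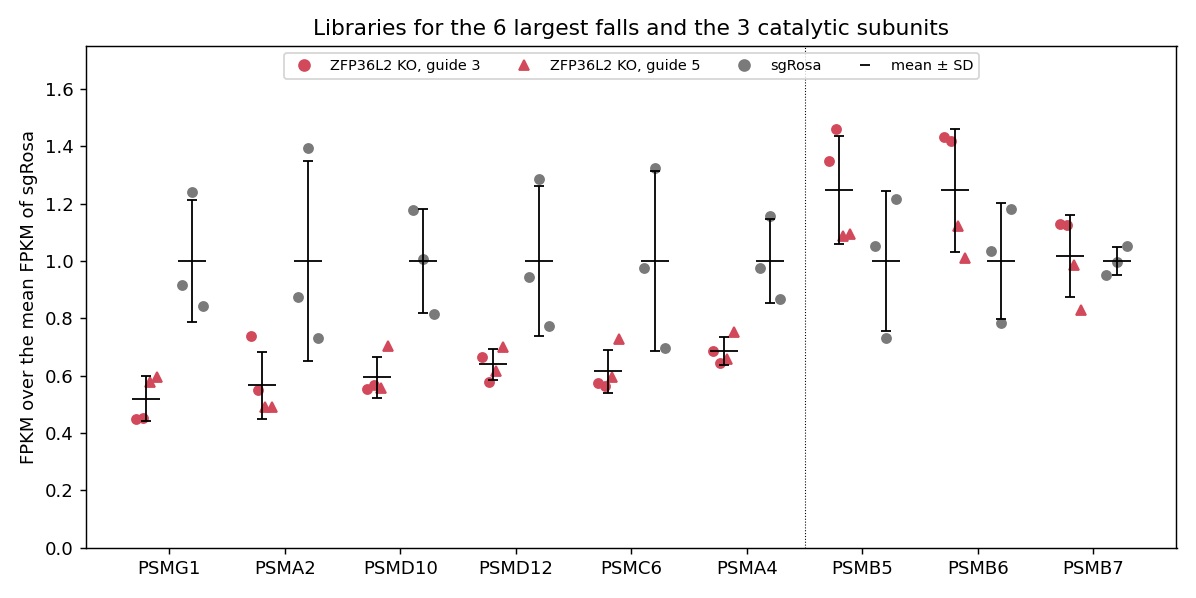
FPKM of each library over the mean FPKM of sgRosa for the 6 members with the largest falls and the 3 active-site subunits, ZFP36L2 KO libraries in red (circles, guide 3; triangles, guide 5) left of sgRosa in grey, with mean ± SD of each group. PSMG1, PSMD10, PSMD12 and PSMA4 do not overlap between the groups, while PSMB5, PSMB6 and PSMB7 do.

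In the 19S base, 3 of 8 tested members fell, against 19.7% of all tested genes. The ATPase PSMC6 had 1.47 and 1.44 FPKM with guide 3 and 1.52 and 1.86 FPKM with guide 5, against 2.503, 3.40 and 1.79 FPKM in sgRosa libraries. Guide 5 replicate 2 lay above control replicate 3. The log2 change was -0.53 ± 0.18 (SE, adjusted p = 0.038), and it was -0.34 with an adjusted p of 0.063 without control replicate 2. The ATPase PSMC2 fell by 0.45 (adjusted p = 0.036) and the scaffold PSMD1 by 0.43 (adjusted p = 0.027). PSMC4, another ATPase, had 0.30 ± 0.22 (adjusted p = 0.28), and 0.57 with an adjusted p of 0.012 without control replicate 2.

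The base also carries the ubiquitin receptors PSMD2 and PSMD4. PSMD2 had 25.4 and 26.9 FPKM with guide 3 and 23.2 and 20.9 FPKM with guide 5, against 26.0, 27.5 and 28.5 FPKM in sgRosa libraries. PSMD4 had 10.3 and 9.29 FPKM with guide 3 and 8.04 and 7.43 FPKM with guide 5, against 6.16, 6.82 and 8.49 FPKM in sgRosa libraries. For both receptors the groups overlapped. The log2 change came to -0.18 ± 0.15 (SE; 95% interval -0.51 to 0.14, adjusted p = 0.32) for PSMD2 and 0.28 ± 0.16 (SE; 95% interval -0.07 to 0.62, adjusted p = 0.17) for PSMD4.

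In the lid, 3 of 8 tested members fell, against 19.7% of all tested genes. PSMD14 is the deubiquitinase that removes the ubiquitin chain before the substrate enters the core. Its values were 0.76 and 0.66 FPKM with guide 3 and 0.76 and 0.88 FPKM with guide 5, against 1.21, 1.24 and 0.95 FPKM in sgRosa libraries, without overlap. These rest on 2318 to 2937 reads per library, because the gene is long and FPKM divides by its whole span. The log2 change was -0.37 ± 0.12 (SE, adjusted p = 0.030). By limma-voom on recovered reads, which does not use the span or FPKM, it was -0.56 (adjusted p = 0.010). Adding 0.5 to FPKM near 1 brings a log2 change nearer to 0, so the order of falls by size depends on it. PSMA4, at 21.3 to 38.2 FPKM, had -0.53 in both fits, a larger fall than PSMD14 in the first and a smaller one by limma-voom.

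PSMD12, a scaffold subunit of the lid, had 3.58 and 3.10 FPKM with guide 3 and 3.31 and 3.76 FPKM with guide 5, against 5.07, 6.90 and 4.15 FPKM in sgRosa libraries. Both groups were apart, with control replicate 3 the nearest to the KO libraries, and the log2 change was -0.55 ± 0.18 (SE, adjusted p = 0.031). The lid scaffold PSMD6 fell by 0.50 (adjusted p = 0.017). PSMD8 had 0.29 (adjusted p = 0.23), and 0.48 with an adjusted p of 0.024 without control replicate 2. The other lid members PSMD3, PSMD7, PSMD11 and PSMD13 had log2 changes from -0.31 to 0.12.

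None of the 5 activators and inhibitors passed the test, against 19.7% fallen and 22.5% risen of all tested genes. PSME1 and PSME2 form an interferon-inducible cap of the core, PSME3 a nuclear one, and PSME4 is a large single-chain activator. PSME1 had 59.2 and 57.8 FPKM with guide 3 and 57.2 and 61.9 FPKM with guide 5, against 55.8, 54.01 and 64.3 FPKM in sgRosa libraries. PSME2 had 26.6 and 26.2 FPKM with guide 3 and 24.7 and 24.9 FPKM with guide 5, against 20.4, 27.5 and 25.6 FPKM in sgRosa libraries. For both, all 4 KO libraries lay within the sgRosa range, with log2 changes of 0.03 ± 0.16 (SE; 95% interval -0.32 to 0.37, adjusted p = 0.90) and 0.07 ± 0.16 (SE; 95% interval -0.28 to 0.43, adjusted p = 0.73).

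PSME3 had 14.4 and 15.3 FPKM with guide 3 and 14.1 and 14.3 FPKM with guide 5, against 15.1, 25.5 and 15.3 FPKM in sgRosa libraries. Control replicate 2 alone was high, and the log2 change of -0.31 ± 0.20 (SE, adjusted p = 0.22) was -0.07 without it. PSME4 had 1.22 and 1.03 FPKM with guide 3 and 1.31 and 1.497 FPKM with guide 5, against 1.58, 2.53 and 1.38 FPKM in sgRosa libraries. Again control replicate 2 was the highest, and the log2 change was -0.38 ± 0.17 (SE, adjusted p = 0.098), or -0.17 without that library. PSMF1, an inhibitor of the core, had 3.42 and 3.56 FPKM with guide 3 and 3.13 and 3.05 FPKM with guide 5, against 2.64, 3.94 and 3.27 FPKM in sgRosa libraries. Its KO libraries lay within the sgRosa range, with a log2 change of 0.01 ± 0.15 (SE; 95% interval -0.33 to 0.35, adjusted p = 0.95).

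The guides were each set against the same 3 sgRosa libraries. With guide 3, 6 members fell (PSMG1, PSMD10, PSMC6, PSMD12, PSMA4, PSMD14) and 0 rose, against 17.2% fallen and 23.5% risen of all tested genes, and at an unadjusted p under 0.05 PSMB4, PSMB5, PSMB6 and PSMD4 were higher. With guide 5, 4 fell (PSMG1, PSMA2, PSMD6, PSMD1) and 0 rose, against 7.42% fallen and 12.4% risen, and 0 were higher at an unadjusted p under 0.05. By the authors' deposited table, 8 members fell with guide 3 and 4 with guide 5 at a false discovery rate under 0.05, and 0 rose, against 19.4% and 7.81% fallen and 20.5% and 11.9% risen of all genes listed there. Between the guides 0 members passed by limma, against 0.457% higher with guide 5 and 0.280% lower of all tested genes. At an unadjusted p under 0.05 only PSMD3 was lower with guide 5 than with guide 3, and the smallest adjusted p was 0.40. The median difference of guide 5 over guide 3 was -0.15 over the members and -0.07 over all tested genes. By limma-voom on recovered reads PSMC4 rose with guide 3 and 12 fell, against 21.9% and 26.9% of all genes, and 0 rose and 7 fell with guide 5, against 15.3% and 12.8%.

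The changes of the members followed the GC content of their exons, pooled over all annotated transcripts of each gene. Bases shared by several transcripts count in each transcript that holds them. The 12 members that fell had 36.9% to 45.7% GC with a median of 41.5%, against a median of 51.6% in the 25 other tested members. Across the 37 members the log2 change and GC had a Pearson r of 0.77 and a Spearman rho of 0.80, and across all 6783 tested genes an r of 0.59 and a rho of 0.69. These are descriptions, since all genes share the same 7 libraries and genes are not independent replicates. Below 42% GC, 7 of 9 members fell with a median log2 change of -0.45, and all 1279 tested genes in that range had the same median, -0.45, with 51.8% fallen. Between 42% and 46% GC, 5 of 7 members fell with a median of -0.49, against -0.34 and 37.3% fallen of 1074 genes. At 54% GC or more, 0 of 6 members rose with a median of 0.21, against 0.42 and 44.8% risen of 2647 genes.

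After each library was corrected for GC content and length, 5 of 37 members fell and 0 rose (13.5% fallen), against 25.2% fallen and 18.0% risen of all tested genes. The median was -0.11 over the members and -0.08 over all genes. Of the 12 members that fell before, PSMG1 (-0.71, adjusted p = 0.00084) and PSMD10 (-0.38, adjusted p = 0.031) still passed. The estimate for PSMD14 turned to 0.09 (adjusted p = 0.46), and the other 9 stayed below 0 without passing. The 3 further members that fell were the ATPase PSMC3 (-0.52), the chaperone PSMG3 (-0.53) and the receptor PSMD2 (-0.34). By subcomplex, 0 of 5 tested alpha, 0 of 6 beta and 0 of 8 lid members fell after correction. Among base members 2 of 8 fell, and among assembly chaperones 3 of 5, so the falls named for the alpha ring, base and lid above were not kept. Whether GC content plays a part in the measured changes was not tested.

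**Figure D4:**
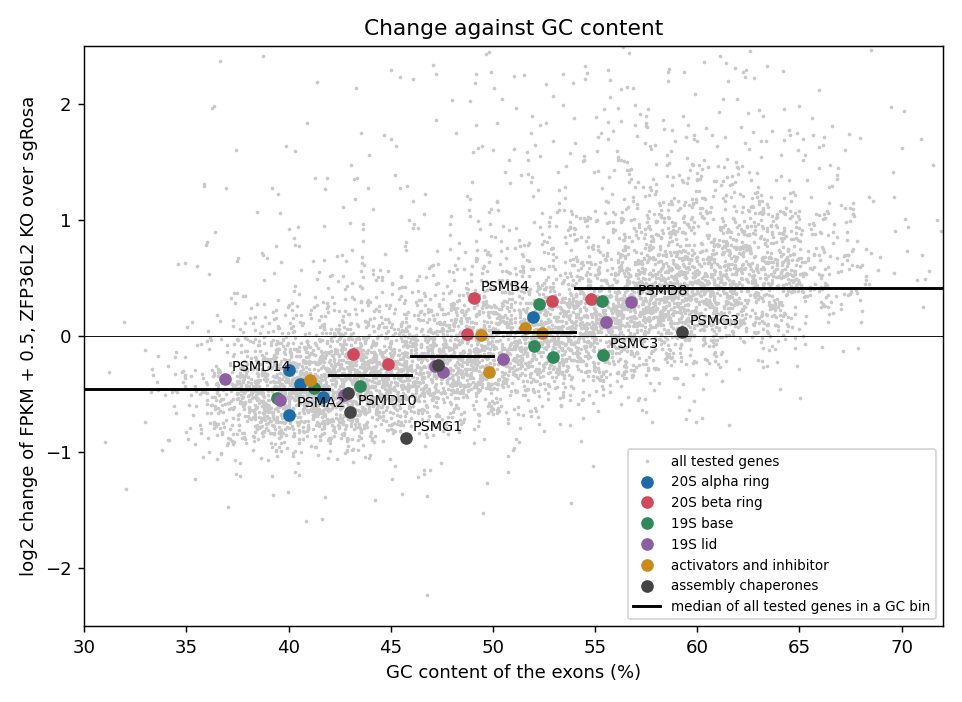
Log2 change in ZFP36L2 KO over sgRosa against GC content of the exons for all tested genes (grey), with the 37 tested members coloured by subcomplex and black bars for the median of all genes in each GC range (55 genes lie outside the axes). Members follow the slope of the grey cloud. PSMG1 (-0.88) lies inside the cloud, under the median of its range (-0.34). The members above 54% GC also lie under the median of their range.

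The motifs shown above were set beside the changes as a description, with no test of a difference. Of 5 tested members with TATTTAT, 2 fell (PSMG1 and PSMD12) and 0 rose, against 10 fallen of the 32 without it. Over all tested genes searched, 26.5% of the 1707 with the motif fell and 18.5% rose, against 17.6% and 24.3% of the 4711 without it. TATTTAT holds no G or C, and 51.8% of tested genes below 42% GC fell, against 1.36% at 54% GC or more. Whether these shares differ between genes of equal GC content was not tested. Of 10 tested members with the antioxidant response element core, 4 fell, with a median log2 change of -0.31, and of 21 with a promoter but no match, 8 fell, with a median of -0.29. Over all tested genes with a promoter, 19.7% of the 819 with the core fell and 21.9% rose, against 20.6% and 21.8% of the 4180 without it.

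The catalytic subunits of the immunoproteasome replace PSMB5, PSMB6 and PSMB7 in newly built cores after interferon. PSMB10, the partner of PSMB7, had 11.7 and 14.8 FPKM with guide 3 and 13.3 and 10.8 FPKM with guide 5, against 6.87, 4.12 and 9.94 FPKM in sgRosa libraries. It rose by 0.88 ± 0.25 on the log2 scale (SE, adjusted p = 0.019), and by 0.57 without control replicate 2. By guide, it passed with guide 3 (0.95, adjusted p = 0.031) and not with guide 5 (0.82, adjusted p = 0.079). After GC and length correction the value was 0.20 (adjusted p = 0.36). PSMB10 shares 644 exonic bases with AC040162.1 on the same strand. PSMB9, the partner of PSMB6, had a log2 change of 0.38 ± 0.14 (SE, adjusted p = 0.049). It entered the test through the KO libraries, since 4 of these and 1 sgRosa library reached 1 FPKM, its adjusted p was 0.073 without the filter, and it passed in 2 of 7 fits that left out a library. PSMB8, the partner of PSMB5, had 0.17 ± 0.18 (SE, adjusted p = 0.47).

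The log2 ratio of PSMB10 to PSMB7 was 2.42 and 2.77 with guide 3 and 2.81 and 2.76 with guide 5, against 1.90, 1.10 and 2.29 in sgRosa libraries. All KO libraries lay above all sgRosa libraries, with a difference of 0.92 (two-sided exact permutation p = 0.057, the smallest that 35 splits allow; 0.17 adjusted over 3 ratios). The difference was 0.59 without control replicate 2 and 0.20 after GC and length correction. PSMB9 to PSMB6 differed by 0.24 (exact permutation p = 0.46, adjusted 0.46) and PSMB8 to PSMB5 by -0.17 (exact permutation p = 0.11, adjusted 0.17), both with overlap. Per exon length, PSMB8 stood at 0.962 ± 0.0890 of the level of PSMB5 in KO libraries (SD, n = 4) and at 1.08 ± 0.0369 in sgRosa libraries (SD, n = 3). PSMB9 stood at 0.0986 ± 0.0208 of the level of PSMB6 in KO libraries and at 0.0848 ± 0.0254 in sgRosa libraries.

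**Figure D5:**
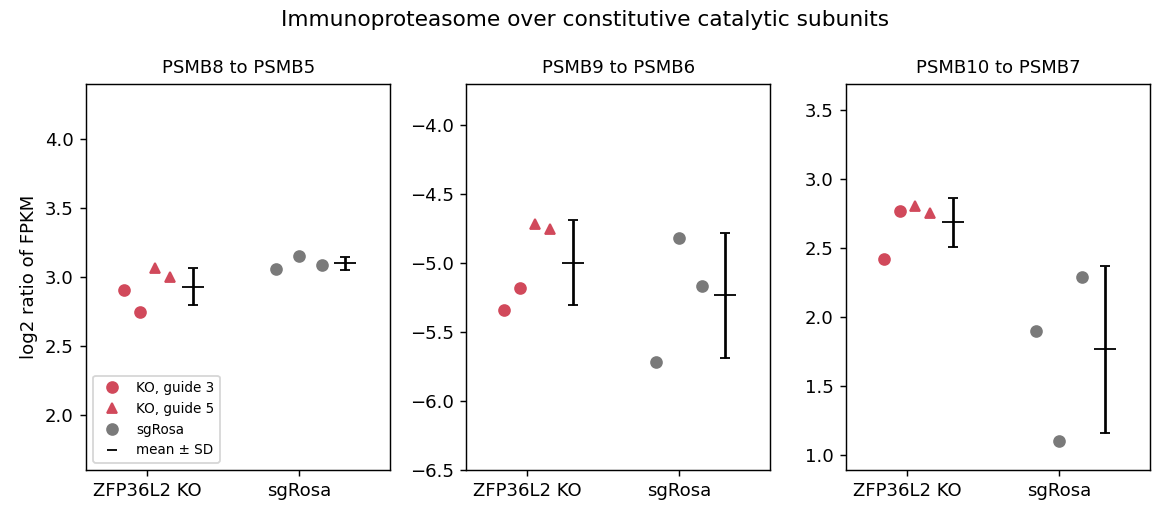
Log2 ratio of FPKM of each immunoproteasome subunit to the constitutive subunit it replaces, per library, ZFP36L2 KO (red; circles, guide 3; triangles, guide 5) left of sgRosa (grey), with mean ± SD and axes of equal height. The groups overlap for PSMB8 to PSMB5 and PSMB9 to PSMB6 and not for PSMB10 to PSMB7, where control replicate 2 is lowest at 1.10.

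Of 25 proteasome-associated proteins and regulators, 22 were tested, of which 6 rose and 7 fell, against 22.5% risen and 19.7% fallen of all tested genes, with a median log2 change of -0.15. NFE2L1 had 18.01 and 17.8 FPKM with guide 3 and 24.2 and 22.6 FPKM with guide 5, against 8.87, 12.98 and 10.2 FPKM in sgRosa libraries. Its KO libraries were all higher, and it rose by 0.93 ± 0.17 (SE, adjusted p = 0.0021). The small MAF partners MAFK (1.02 ± 0.17, adjusted p = 0.0016) and MAFG (0.98 ± 0.15, adjusted p = 0.00070) rose as well, each again after GC and length correction (0.34 and 0.56), as did NFE2L1 (0.61). AKIRIN2, which carries proteasomes into the nucleus, and the ubiquitin receptor ADRM1 were also among the 6, and ADRM1 had -0.07 after that correction and an adjusted p of 0.051 without control replicate 2.

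POMP, the chaperone of beta ring assembly, had 8.40 and 7.14 FPKM with guide 3 and 5.68 and 6.67 FPKM with guide 5, against 11.5, 9.18 and 9.07 FPKM in sgRosa libraries. It fell by 0.49 ± 0.16 (SE, adjusted p = 0.031), without overlap, and its log2 change was -0.15 after GC and length correction (adjusted p = 0.33). The deubiquitinases USP14 and UCHL5, both bound to the cap, the protease DDI2 and the glycanase NGLY1, which both act on NFE2L1 protein, TXNL1 and KIAA0368 (now ECPAS) made up the 7 that fell. NGLY1 entered the test through sgRosa libraries alone. After GC and length correction 7 of the list rose and 3 fell, against 18.0% and 25.2% of all tested genes. Of the 12 genes of ubiquitin supply and the VCP segregase 11 were tested, and NPLOC4, a cofactor of VCP, rose by 0.77 (adjusted p = 0.0017) and the activating enzyme UBA6 fell by 0.42 (adjusted p = 0.018). UBA6 also entered through sgRosa libraries alone and had 0.02 after correction. The list had 2 rises and 1 fall, against 22.5% risen and 19.7% fallen of all tested genes, and a median of 0.05.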

How the data were processed

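Poly(A) RNA of 7 libraries was sequenced single-end with a directional kit, per the labels' protocols. The submitters' processing notes name the builds GRCh38.p7 and hg38 and the tools limma, edgeR, HTSeq and STAR 2.5.3; whether counting used strand is not given in the sources used here. The authors deposited FPKM per library, log2 fold changes of each guide over sgRosa with an adjusted p-value (false discovery rate), and mean CPM. Mean CPM over mean FPKM gave gene lengths, which show that the deposited FPKM are per kilobase of gene span, introns included. FPKM times length gave whole reads for 100% of values in each library (within 0.01). Reads have no molecular identifiers.

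Values log2(FPKM + 0.5) were fitted in limma 3.58.1 (R 4.3.3) with a mean for each guide and for sgRosa and a mean-variance trend, and the fit was tested on simulated data. GC content, exon lengths, gene coordinates and 3′ UTRs came from GENCODE 29. GC and length correction removed a spline of both from each library. Limma-voom was run on the recovered reads. Ratios were tested by exact permutation in scipy 1.17.1. Members, lists and the search motifs were chosen with earlier results of these data known. Library values are given for the active-site subunits, PSMD14, PSMD2, PSMD4, the activators, PSMF1, the 6 largest falls, ZFP36L2, PSMB10, NFE2L1 and POMP, and named list genes are the largest called changes (up to 4 a list); other members of the lists were named after their values were seen. A few genes of the lists are counted but not reported here by name.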

Additional observations from a re-analysis of the deposited data

Results flagged for a closer look

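In 3 of 44 sets of 4 KO libraries, 1 library lay far from the other 3 by Dixon's test at 95%, where chance gives about 1 in 20. PSMD8 had 36.6 FPKM in guide 3 replicate 2, above the other KO libraries. PSMD10 had 3.56 FPKM in guide 5 replicate 2, above the other KO libraries and below every sgRosa library. The log2 ratio of PSMB10 to PSMB7 was 2.42 in guide 3 replicate 1, below the other KO libraries and above every sgRosa library.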

How the results depend on the processing

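All 12 members that fell in KO over sgRosa fell again with a pseudocount of 0.1 or 1, median of ratios scaling, a single mean for both guides, recovered CPM (14 fell), limma-voom (15), quantile scaling (15) and library weights (13). Scaling to the same sum of FPKM gave 21 falls and moved the median of all genes to -0.17. A mean FPKM of at least 5 left 21 members tested, of which 3 fell. These 3 (PSMA4, PSMD6, PSMG1) were all of the 12 that this filter kept. GC and length correction gave 5 falls, of which 2 were among the 12. For the scaling and the correction the cause was not tested. Leaving out a library gave 1 to 13 falls and 0 to 2 rises, and library weights gave 2 rises (PSMC4, PSMD8). Over all alternatives, 11 of the 12 lost their call at least once. Shares of all tested genes are not given for every setting. The counts of falls and rises in this section therefore compare settings, and do not set the members against other genes.

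With guide 3, falls numbered 14 with quantile scaling, 18 with the same sum, 12 with recovered CPM and with limma-voom, 10 with library weights, 3 with GC and length correction, 2 with a mean FPKM of at least 5 and with the compared groups alone, and 1 to 10 with a library left out. Rises with guide 3 numbered 1 with median of ratios, recovered CPM, limma-voom and no variance trend, 6 with library weights, and 0 to 3 with a library left out. With guide 5, falls numbered 2 with no filter and with a mean FPKM of at least 5, 7 with quantile scaling, recovered CPM, limma-voom and GC and length correction, 9 with the same sum, 10 with library weights, 0 with the compared groups alone (2 libraries against 3) and 0 to 9 with a library left out; library weights gave 1 rise. For guide 5 over guide 3, library weights gave 3 falls. A fit that leaves 1 library in a group assumes that it varies like the others.

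A replicate block gave 12 falls in KO over sgRosa (11 shared), 2 rises with guide 3 and 7 falls with guide 5. The numbers were not taken as pairing libraries, since deviations of same-numbered libraries had correlations of -0.57 to 0.44.

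With GC and length correction these log2 changes took the other sign: PSMD14 0.089, PSMA3 0.086, PSMA7 -0.033, PSMB1 0.11, PSMB2 0.018, PSMB6 -0.062, PSMB7 -0.00054, PSMC4 -0.044, PSMD3 -0.18, PSMD8 -0.096, PSME1 -0.19, PSME2 -0.015, PSME4 0.0054, PSMG3 -0.53, PSMB8 -0.059, ADRM1 -0.075 and UBA6 0.018. With quantile scaling so did PSMA7 (-0.0060), PSMB7 (-0.0034), PSME1 (-0.17), PSME2 (-0.099), PSMF1 (-0.023), PSMG3 (-0.046) and PSMB8 (-0.028). The same sum did this for PSMA7 (-0.028), PSMB7 (-0.14), PSMD3 (-0.067), PSME1 (-0.17), PSME2 (-0.12), PSMF1 (-0.16), PSMG3 (-0.15) and PSMB8 (-0.026), and library weights for PSMC5 (0.025) and PSMG3 (-0.15).

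With 1 library left out, the sign also depended on the library for these log2 changes, given from lowest to highest: PSMA7 -0.0020 to 0.26, PSMB2 -0.37 to 0.0082, PSMB7 -0.034 to 0.062, PSME1 -0.022 to 0.10, PSME2 -0.053 to 0.16, PSMF1 -0.11 to 0.14, PSMG3 -0.23 to 0.19 and PSMB8 -0.011 to 0.32. The lowest came without control replicate 2 for PSMA7, PSME1, PSMG3 and PSMB8, without control replicate 1 for PSMB2, PSME2 and PSMF1, and without guide 5 replicate 1 for PSMB7. The PSMB9 to PSMB6 ratio had -0.0025 without control replicate 1 and 0.45 without control replicate 2. The PSMB8 to PSMB5 ratio and the PSMB10 to PSMB7 ratio kept their sign in each of the alternatives run (-0.21 to -0.11 and 0.59 to 1.19 with a library left out). The cause was not tested in any of these.

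Depth limits PSMA6 most, at 27 to 92 reads per library.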
